A study of Mus musculus with 6 samples.

Results

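Bone morphogenetic protein (BMP) signaling and the Id genes were followed here in DM1 myoblasts with and without miR-322/-503 overexpression. The 10 genes, chosen by name, were the 4 Id genes (Id1, Id2, Id3 and Id4), the ligand Bmp4, the receptors Bmpr1a and Bmpr2, the inhibitory Smad gene Smad6 and the secreted antagonists Nog and Grem1. All 10 were among the 55421 genes of the count table, and 9 of them passed the filter on low counts that left 18140 genes for testing. Id4 did not pass. Both groups were C2C12 cells, a mouse myoblast line, carrying a GFP transcript with 200 CUG repeats in its 3' untranslated region (3'UTR), a cell model of myotonic dystrophy type 1. The control carried the empty pLL4.0 vector and the other group the same vector with miR-322/-503, 3 libraries each, and RNA was taken on day 4 of differentiation. The study's methods describe drug-selected stable lines grown in horse serum with insulin for differentiation. Each group was thus its own line, so a difference between lines and an effect of the microRNAs cannot be told apart.

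BMP ligands bind pairs of type I and type II receptors on the cell surface. The activated type I receptor phosphorylates Smad1, Smad5 and Smad9, which enter the nucleus with Smad4 and switch on target genes, the Id genes among the best known. Id proteins lack a DNA-binding region and capture E proteins, so that myogenic factors such as MyoD lose their partners, and BMP signaling is known to hold myoblasts back from differentiation. Noggin, gremlin and related secreted proteins bind the ligands outside the cell, while Smad6 and Smad7 act as feedback inhibitors inside it.

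Levels are given as CPM, the estimated counts of a gene scaled to the TMM-normalized library size, for comparing a gene between libraries. They are also given as TPM, which accounts for transcript length, for comparing genes with each other. A gene was called changed below an adjusted p of 0.05, from the quasi-likelihood test of edgeR with the Benjamini-Hochberg correction for all 18140 genes. Libraries held 73532084 to 92157388 estimated counts, which corresponds to 18383021 to 23039347 read pairs. Replicates differed by more than sampling noise, so all 6 libraries were used. The study's methods name biological and technical replicates for its assays in general. Neither that statement nor the labels say whether these libraries came from separate cultures, so the p-values measure the spread between these libraries only. The precursor genes Mir322 and Mir503 reached at most 17 and 6 estimated counts in any library, too few to check the microRNA levels from these data. The muscle gene Acta1 was present, with a mean level of 1730 TPM in control and 1819 TPM in miR-322/-503 overexpressing cells. Other muscle markers, which moved in both directions, are given below.

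Of the 9 tested genes, Id2 was higher in miR-322/-503 overexpressing cells, Bmp4, Smad6 and Id3 were lower, and 5 were not called. Across all tested genes 28.8% were called, 13.2% higher and 15.5% lower. The median log2 fold change of the 9 genes was 0.03, beside -0.01 over all tested genes. Only Smad6 among the 9 also passed the study's limit of a log2 fold change beyond 1 in either direction, which 9.87% of all tested genes did. The values of the 2 groups did not overlap for 5 of the 9 genes, and 45.1% of all tested genes showed no overlap.

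**Figure D1:**
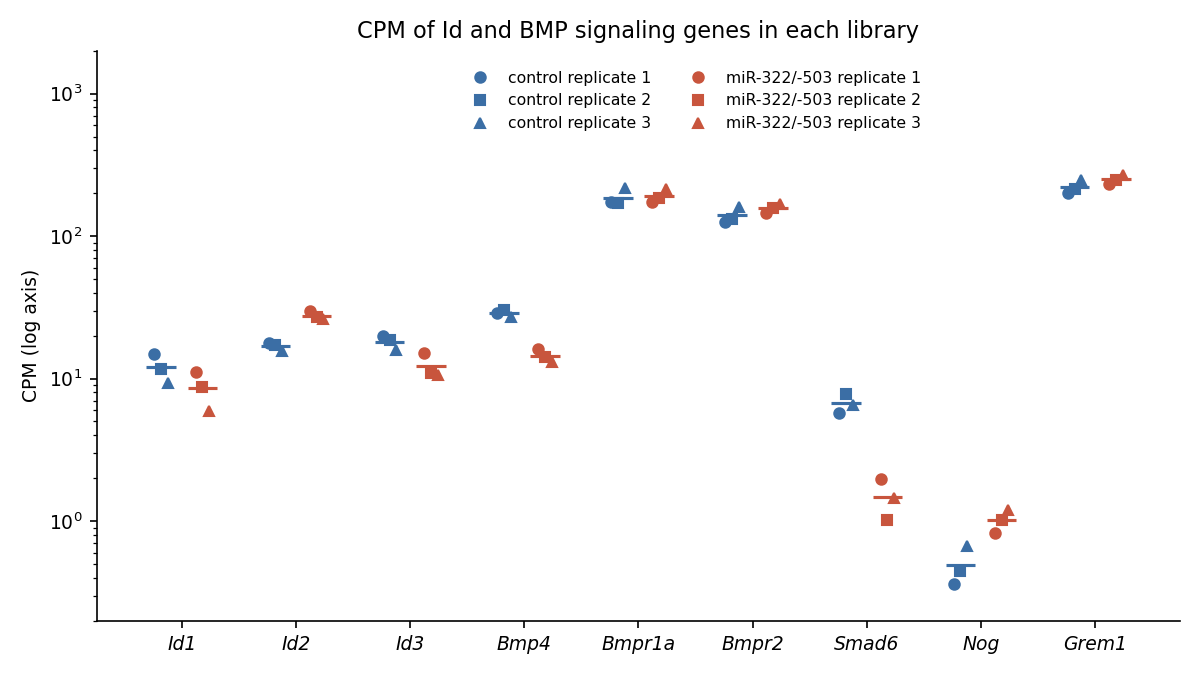
CPM (log axis) of the 9 tested genes in the 3 control and 3 miR-322/-503 libraries, with points for libraries, 1 marker shape per replicate number, and horizontal lines for group means. Bmp4, Smad6 and Id3 lie lower and Id2 and Nog lie higher in all 3 miR-322/-503 libraries than in every control library.

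**Figure D2:**
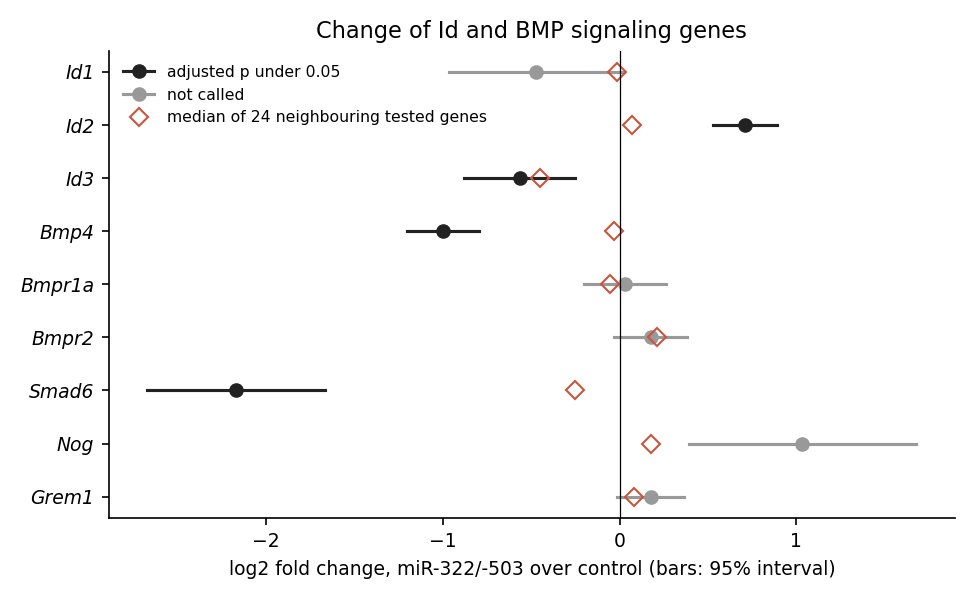
Log2 fold change of the 9 tested genes (miR-322/-503 against control, edgeR), with bars for the 95% interval and diamonds for the median of the 24 neighbouring tested genes on the chromosome. Smad6 lies farthest from 0 at -2.17, and the diamond of Id3 lies at -0.45.

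The seed sequences of the overexpressed microRNAs are shown first, because they define which 3'UTR letters could be counted. Both mature sequences come from RefSeq on GRCm38.p6, chromosome X, minus strand, at chrX:53054306-53054327 for miR-322-5p and chrX:53054027-53054049 for miR-503-5p, with the seed (bases 2 to 8) in capitals.
miR-322-5p: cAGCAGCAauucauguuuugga
miR-503-5p: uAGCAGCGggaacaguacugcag
The seeds differ in their last base, so the 7-base matches in a 3'UTR are TGCTGCT and CGCTGCT, both of which contain GCTGCT. The longest annotated 3'UTR of 13487 tested genes held TGCTGCT in 27% of cases, CGCTGCT in 5.72% and GCTGCT in 49.3%. Among the 10 genes, only the receptors Bmpr1a and Bmpr2 held a 7-base match, and each held matches for both microRNAs. Grem1 held the shorter GCTGCT alone. No such letters were found in the 3'UTRs of the 4 Id genes, Bmp4, Smad6 or Nog. The 3'UTRs with matches were also long, 3810 bases for Bmpr1a and 8529 for Bmpr2, against a median of 1343 bases over all genes searched.

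Bmp4, the only member that encodes a ligand, was expressed at roughly 0.5 times the control level in miR-322/-503 overexpressing cells. Bmp4 (ENSMUSG00000021835, chr14:46383520-46390669 of GRCm38, minus strand) had 29.1, 30.5 and 26.9 CPM in the control libraries and 16.1, 14.1 and 13.04 CPM in the miR-322/-503 libraries. Every miR-322/-503 library lay below every control library, and the means were 28.8 ± 1.84 and 14.4 ± 1.55 CPM (SD, n = 3 each). The log2 fold change was -0.997 with a standard error of 0.10 (edgeR adjusted p = 0.000378). Per length, the mean fell from 31.7 ± 1.54 to 16.5 ± 3.30 TPM. The median log2 fold change of the 24 tested genes around Bmp4 on the chromosome was -0.03. The gene Gm15222 overlaps Bmp4 by 1764 bases on the other strand, with 219, 275 and 296 estimated counts in control and 118, 153 and 152 in the other group. Whether the libraries kept strand is not given in the sources used here, so the reads of these overlapping genes cannot be told apart. In these bulk libraries, fewer cells of a type and less RNA per cell cannot be told apart either.

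Bmp4 was by far the most abundant BMP ligand transcript. The 13 other ligand genes on a list of the pathway had at most 0.566 TPM in any library, the value of Bmp8a. Transcripts of 7 of them had no count in any library. Of the 3 that could be tested, Bmp8a, Gdf5 and Gdf7, none was called, and their edgeR adjusted p-values lay between 0.400 and 0.921.

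The antagonists among the 10 genes did not pass the test, although both had higher means in miR-322/-503 overexpressing cells. Grem1 (ENSMUSG00000074934, chr2:113746164-113758646, minus strand) encodes gremlin 1, which binds BMP2 and BMP4 and blocks their access to receptors. It had the highest level per length of the 10 genes in both groups, 101 ± 10.9 TPM in control and 113 ± 4.23 TPM in miR-322/-503 overexpressing cells. Its CPM ranged from 200.5 to 249.6 in control and from 233 to 268 in the other group. These ranges overlap, and the log2 fold change of 0.18 had a 95% interval from -0.01 to 0.36 (edgeR adjusted p = 0.222). It was 0.11 without control replicate 1 and 0.27 without control replicate 3, with no call in either fit.

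Nog (ENSMUSG00000048616, chr11:89300638-89302332, minus strand) encodes noggin, a BMP antagonist that masks the receptor-binding surfaces of the ligand. It was scarce, with 28, 37 and 56 estimated counts in control and 78, 76 and 90 in the other group, where about 4 estimated counts stand for 1 read pair. The groups did not overlap on the CPM scale, with means of 0.491 ± 0.155 and 1.01 ± 0.189 CPM. The log2 fold change of 1.03 had a 95% interval from 0.39 to 1.68, and the edgeR adjusted p was 0.0523. Without control replicate 3, the control library with the highest value, the log2 fold change was 1.31 with an edgeR adjusted p of 0.0355. None of the other 5 omissions gave a call, with log2 fold changes from 0.86 to 1.17 and edgeR adjusted p-values from 0.0675 to 0.151.

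Set against the ligand, Nog and Grem1 together had 3.07, 3.14 and 3.43 TPM per TPM of Bmp4 in the control libraries. The same ratio was 5.46, 7.22 and 8.71 in the miR-322/-503 libraries. The ratio was thus higher in each miR-322/-503 library than in each control library, with means of 3.21 ± 0.191 and 7.13 ± 1.63. Its numerator overlapped between the groups, and its denominator was the called Bmp4 value already given.

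Neither receptor gene among the 10 was called. Bmpr1a, a type I receptor for BMP2 and BMP4, lies at chr14:34410734-34503341 on the minus strand (ENSMUSG00000021796). It had 172, 170 and 216 CPM in control and 172, 185 and 213 CPM in miR-322/-503 overexpressing cells. The groups overlapped over nearly their whole range, and the log2 fold change of 0.03 had a 95% interval from -0.20 to 0.26 (edgeR adjusted p = 0.884). Its direction turned negative without control replicate 1 (-0.024), without control replicate 2 (-0.033) or without miR-322/-503 replicate 3 (-0.060).

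Bmpr2, the type II receptor specific to BMP ligands, lies at chr1:59763400-59879014 on the plus strand (ENSMUSG00000067336). It had 127, 132 and 161 CPM in control and 146, 159 and 169 CPM in the other group. The log2 fold change was 0.18 with a 95% interval from -0.03 to 0.38 (edgeR adjusted p = 0.263), beside a median of 0.21 for its 24 tested neighbours on the chromosome. Control replicate 3 was the control library that overlapped the other group. Without it, the log2 fold change was 0.29 with an edgeR adjusted p of 0.0465. The other omissions gave no call, with log2 fold changes from 0.11 (without control replicate 1) to 0.23.

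The 3'UTR sites of both receptors are printed here because these were the only 2 of the 10 genes with full seed matches. Each run is read on the strand of the gene from GENCODE M21 transcripts (GRCm38), with the 7-base match in capitals. The bases before it and the single base after it are in lower case.
Bmpr1a, miR-322-5p match, chr14:34412619-34412641: cgaaatggcaaacgcTGCTGCTt
Bmpr1a, miR-503-5p match, chr14:34412622-34412644: tctcgaaatggcaaaCGCTGCTg
Bmpr1a, miR-503-5p match, chr14:34410963-34410985: aagtgtgcatccctaCGCTGCTg
Bmpr2, miR-322-5p match, chr1:59871845-59871867: tcacgtagcttctggTGCTGCTg
Bmpr2, miR-322-5p match, chr1:59877759-59877781: gattagaataatagcTGCTGCTt
Bmpr2, miR-503-5p match, chr1:59878125-59878147: tggatgtggtgcctaCGCTGCTg
The first 2 Bmpr1a matches overlap each other. Neither receptor was called lower in miR-322/-503 overexpressing cells, with log2 fold changes of 0.03 and 0.18 as given above. A match is a description of letters, and binding by the microRNAs was not measured. Over all 13487 genes searched, the median log2 fold change was 0.01 with TGCTGCT and -0.02 without it.

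Of the other BMP type I receptors, Bmpr1b and Acvrl1 were called lower and Acvr1 was not called. Bmpr1b, the close relative of Bmpr1a, was lower in every miR-322/-503 library, with 14.6, 14.9 and 17.5 CPM in control and 0.504, 0.974 and 0.625 CPM in the other group. The log2 fold change was -4.49 with a standard error of 0.25 (edgeR adjusted p = 1.79e-05), the farthest from 0 among the BMP genes examined. Acvrl1 (ALK1), a receptor best known in vessel lining cells, fell by 2.08 on the log2 scale (edgeR adjusted p = 0.00363) from 1.54 ± 0.445 CPM. Acvr1 (ALK2) was at 0.22 (edgeR adjusted p = 0.254).

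Bmpr1b was a minor type I receptor transcript in both groups. It made up 6.06%, 6.28% and 6.85% of the summed TPM of Bmpr1a, Bmpr1b and Acvr1 in the control libraries. In the miR-322/-503 libraries it made up 0.157%, 0.293% and 0.165%. The 3 receptors together had 115 ± 3.28 TPM in control and 119 ± 5.26 TPM in miR-322/-503 overexpressing cells, and these sums overlapped between the groups.

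**Figure D3:**
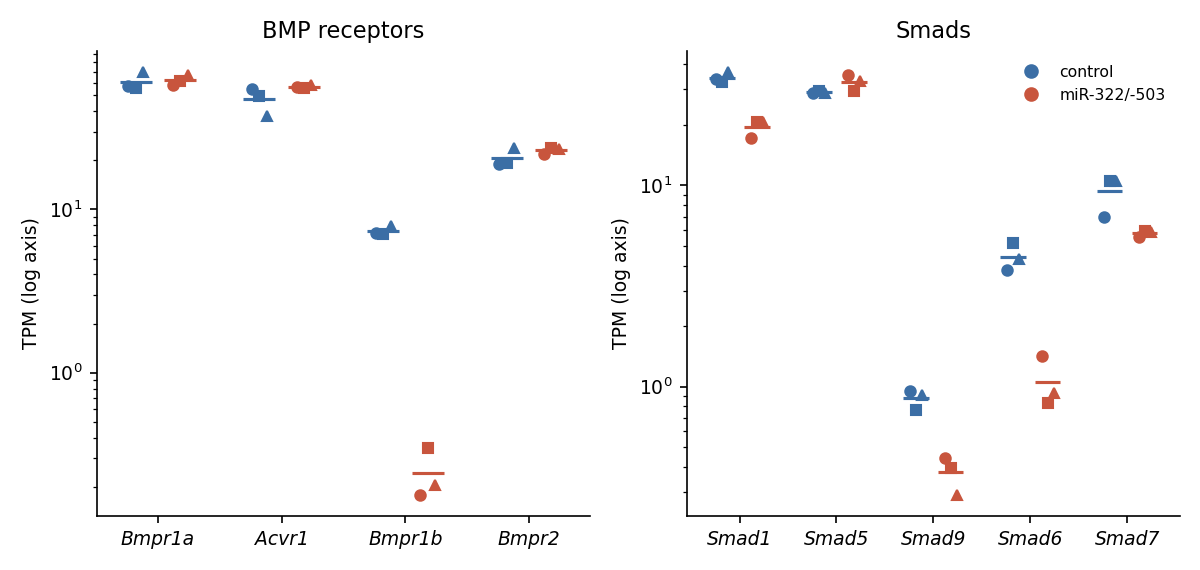
TPM (log axis) of 4 BMP receptor and 5 Smad genes per library in control (blue) and miR-322/-503 overexpressing cells (red), with points for libraries and horizontal lines for group means. Bmpr1b, Smad1, Smad6, Smad7 and Smad9 lie lower in all 3 miR-322/-503 libraries, whereas the Bmpr1a values of the 2 groups overlap.

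Smad6, which encodes an inhibitory Smad that blocks signaling at the type I receptor and at Smad1, had the largest change of the 10 genes. Smad6 (ENSMUSG00000036867, chr9:63953076-64022059, minus strand) had 5.76, 7.76 and 6.55 CPM in control and 1.97, 1.01 and 1.46 CPM in miR-322/-503 overexpressing cells. The lowest control library was well above the highest miR-322/-503 library, and the means were 6.69 ± 1.01 and 1.48 ± 0.480 CPM, with a fitted fold of 4.49 in edgeR. The log2 fold change was -2.17 with a standard error of 0.26 (edgeR adjusted p = 0.000714). The median log2 fold change was -0.27 on chromosome 9 and -0.25 for the 24 neighbours of Smad6, and relative to its chromosome Smad6 still had -1.90.

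A tandem pair of Smad-binding letters ran across the annotated Smad6 start. In the RefSeq window of GRCm38.p6 from 250 bases before to 50 after the start (chr9:64022010-64022309, minus strand), GTCTAGAC, which reads the same on both strands, began at position -4 relative to the start, ran past it and is shown in capitals.
Smad6: gccaaagtGTCTAGACtggcatat
These 8 letters occurred in 0.213% of 32851 such windows and in none of the other members found in the table. The table held 8 of the 10 genes, all but Id1 and Nog. The letters GGCGCC, a GC element that BMP Smads are known to bind, also a palindrome, were found in 5 of the 8 genes, against 11.9% of all windows. Id2, Bmpr2 and Grem1, of which 1 was called and 2 were not, illustrate the matches at positions -231, -105 and -78.
Id2: gccccctgGGCGCCcagcgcac
Bmpr2: ggcggccgGGCGCCgctgcctg
Grem1: gcggcgacGGCGCCtgaccaat
The other matches were in Id4 and Bmpr1a. The longer BMP response element, which joins a GC element to a Smad-binding element and was searched on both strands, was found in 0.35% of all windows and in none of the 8. The E-box CANNTG was found in 3 of the 8 and in 72.3% of all windows. Of the 4 called genes, all in the table, Id2 alone held GGCGCC. These counts describe windows of 300 bases only.

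The Smad genes that carry the signal also moved in part. Smad1 fell from 53.3 ± 4.86 to 31.2 ± 2.72 CPM (log2 fold change -0.77, edgeR adjusted p = 0.000886), where its 24 neighbours on the chromosome had a median of -0.36. Smad9, a much scarcer relative, fell by 1.20 on the log2 scale (edgeR adjusted p = 0.00454). Smad5 rose by 0.26 (edgeR adjusted p = 0.023), although its call was lost on the TPM scale and without any of 5 of the 6 libraries. Relative to the median of its chromosome it was at 0.10. Smad4, the shared partner, was at -0.21 and was not called (edgeR adjusted p = 0.121).

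Smad1, Smad5 and Smad9 together had 64.2 ± 1.91 TPM in control and 52.5 ± 1.75 TPM in miR-322/-503 overexpressing cells. Smad1 provided 53.4 ± 1.73% of that sum in control and 37.2 ± 4.20% in the other group. Smad7, the second inhibitory Smad, fell by 0.66 on the log2 scale (edgeR adjusted p = 0.0285), but this call was lost without any of 5 libraries, with edgeR adjusted p-values from 0.0590 to 0.0900 in those fits. The only library whose omission kept the call was control replicate 1.

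The Id genes moved in different directions. Id2 was higher and Id3 lower in miR-322/-503 overexpressing cells, Id1 was not called, and Id4 was barely detected. Id2 (ENSMUSG00000020644, chr12:25093799-25097140, minus strand), which in muscle cells restrains E proteins, had 17.9, 17.3 and 15.6 CPM in control and 29.8, 27.1 and 26.2 CPM in the other group. The groups were well apart on this scale. The means were 16.9 ± 1.21 and 27.7 ± 1.88 CPM, a 1.64-fold rise, with a log2 fold change of 0.71 and a standard error of 0.09 (edgeR adjusted p = 0.00109).

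On the deposited TPM scale the Id2 difference was less clear. Control libraries had 28.8, 19.99 and 23.0 TPM and miR-322/-503 libraries 46.2, 42.4 and 25.1 TPM. Replicate 3 of the latter lay inside the control range, and with limma on log2(TPM + 1) the difference of 0.61 was not called (adjusted p = 0.107). The call in edgeR was kept without any single library, with adjusted p-values from 0.00362 to 0.00513.

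Id3 (ENSMUSG00000007872, chr4:136143497-136145755, plus strand), a typical early BMP target, had 19.99, 18.5 and 16.0 CPM in control and 15.2, 10.99 and 10.6 CPM in miR-322/-503 overexpressing cells. The lowest control library and the highest miR-322/-503 library lay close to each other without overlapping. The means were 18.2 ± 2.04 and 12.3 ± 2.55 CPM, and the log2 fold change was -0.56 with a standard error of 0.16 (edgeR adjusted p = 0.0356). This call was lost without control replicate 1, control replicate 2, miR-322/-503 replicate 2 or miR-322/-503 replicate 3, with edgeR adjusted p-values of 0.108, 0.0921, 0.112 and 0.109. The neighbours of Id3 moved with it. The 24 tested genes nearest to it (chr4:135541888-137299726) had a median of -0.45 on the log2 scale, the lowest such value around any of the 9 genes, and the median over chromosome 4 as a whole was -0.19. The part of the surrounding genes in the Id3 difference was not tested.

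Id1 (ENSMUSG00000042745, chr2:152736251-152737410, plus strand), the Id gene most often used as a readout of BMP signaling, had 14.9, 11.7 and 9.38 CPM in control and 11.2, 8.79 and 5.96 CPM in the other group. The groups overlapped, and the log2 fold change of -0.47 had a 95% interval from -0.97 to 0.02 (edgeR adjusted p = 0.215). The value was -0.26 without miR-322/-503 replicate 3 and -0.29 without control replicate 1, and omissions reached -0.70 at most. A fall as large as that of Id3 and no change at all both lie within this interval. Id4 (ENSMUSG00000021379, chr13:48261228-48266026, plus strand) had 4, 0 and 0 estimated counts in control and 0, 8 and 0 in the other group, at most 2 read pairs. This was below the floor of 12 estimated counts (3 read pairs), so no difference was detectable at this depth, and the floor covers counting error only.

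Summed over the 4 genes, the Id level did not separate the groups, while its composition did. The sum was 91.6, 73.2 and 68.3 TPM in control and 93.2, 77.8 and 53.2 TPM in miR-322/-503 overexpressing cells. Id2 made up 31.5%, 27.3% and 33.7% of it in control and 49.6%, 54.5% and 47.2% in the other group. The largest control share of Id2 thus lay below the smallest share in miR-322/-503 overexpressing cells. Correspondingly, the share of Id3 was 38.3 ± 2.81% in control and 26.6 ± 4.44% in the other group, and that of Id1 30.9 ± 2.86% and 22.9 ± 1.69%. Id3 had the highest share in each control library and Id2 in each miR-322/-503 library.

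**Figure D4:**
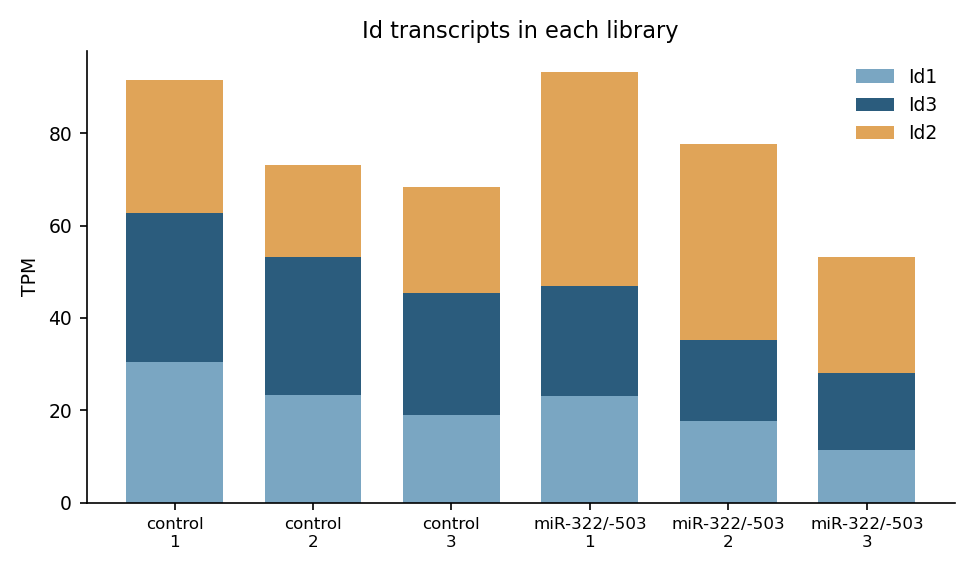
TPM of Id1, Id2 and Id3 stacked per library. The total ranges from 53.2 to 93.2 TPM and overlaps between the groups, while Id2 takes a larger share of the sum in each miR-322/-503 library (47.2% to 54.5%) than in each control library (27.3% to 33.7%).

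Ordered by mean TPM, the control cells ran from Grem1 through Bmpr1a, Bmp4, Id3, Id1, Id2, Bmpr2, Smad6 and Nog to Id4. The ranges over the 3 libraries overlapped for the neighbours Bmp4 and Id3, Id3 and Id1, Id1 and Id2, and Id2 and Bmpr2, so their order was not separated. In miR-322/-503 overexpressing cells the order ran from Grem1 through Bmpr1a, Id2, Bmpr2, Id3, Id1, Bmp4, Nog and Smad6 to Id4. There the neighbours Bmpr2 and Id3, Id3 and Id1, Id1 and Bmp4, and Nog and Smad6 overlapped. By its mean alone, Bmp4 was in place 3 in control and in place 7 in the other group. Neither place was separated, since its range overlapped that of Id3 in control and that of Id1 in the other group. Smad6, at 4.42 ± 0.683 TPM in control and clearly above Nog at 0.542 ± 0.168 TPM, reached 1.06 ± 0.317 TPM in the other group, beside 1.11 ± 0.164 TPM for Nog.

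The rest of the pathway was read from a list of 59 other BMP genes, of which 42 could be tested and 11 had no count in any library. Of the 42, 9 were higher, 17 were lower and 16 were not called, beside the 13.2% higher and 15.5% lower over all tested genes. The median log2 fold change over the list was -0.25. Beyond the limit of 1 on the log2 scale, 3 were higher and 9 were lower, where the shares over all genes were 4.59% and 5.29%. Among these, Msx2, Zfp423 and Bambi passed the filter on low counts through the group where they were high, so these counts are a description. Secreted and membrane antagonists were the largest group among the lower genes. Of 9 tested antagonists, 6 were lower, 2 were higher and 1 was not called, with a median of -1.27.

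Follistatin (Fst), which binds activins and some BMPs, dropped to 15.9 ± 0.467 CPM from 83.2 ± 5.12 CPM (log2 fold change -2.38) with a standard error of 0.07 (edgeR adjusted p = 1.31e-06). Chrdl1, a chordin-like BMP antagonist, fell by 2.26 on the log2 scale (edgeR adjusted p = 0.000149), from 32.6 ± 6.70 to 6.82 ± 1.28 CPM. Bambi, a membrane pseudoreceptor that is itself a BMP target, fell by 3.23 (edgeR adjusted p = 0.00529) from a low level of 1.33 ± 0.385 CPM. Its miR-322/-503 libraries held 9, 21 and 4 estimated counts, and without replicate 2 of that group the value was -4.12. Bambi thus passed the filter on low counts through the control group, where it was high, and was not tested with at least 10 counts required in every library. Fst, Chrdl1 and Bambi were lower in every miR-322/-503 library than in every control library. Bmper, a secreted BMP-binding protein, fell by 1.42 (edgeR adjusted p = 6.54e-06), from 86.0 ± 2.82 to 32.2 ± 1.65 CPM. The other lower antagonists, named after their values were seen, were Fstl3 at -1.27 and Dand5 at -0.64. The 24 neighbours of Dand5 had a median of -0.83, lower than Dand5 itself, and those of Bmper one of -0.38. The 2 higher antagonists, likewise named afterwards, were Twsg1 at 0.36 and Nbl1 at 0.43 on the log2 scale.

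**Figure D5:**
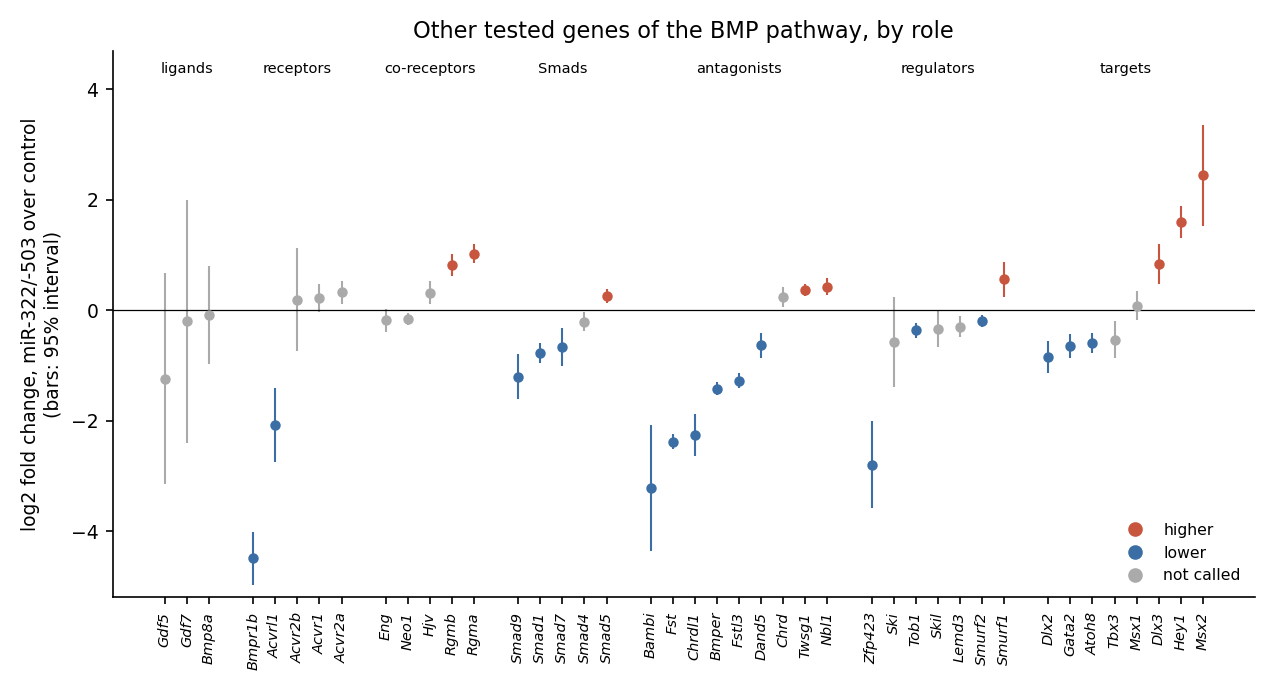
Log2 fold change of the tested genes of the pathway by role (miR-322/-503 against control, edgeR), with bars for the 95% interval and colors for genes called higher, lower or not called. The antagonists lie mostly below 0, with 6 of 9 called lower, and none of the 3 tested ligands was called.

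Of the 3 coreceptors of the repulsive guidance family, which bind BMP ligands and strengthen their signal, Rgma and Rgmb were higher. Rgma rose from 38.1 ± 2.37 to 77.7 ± 7.24 CPM (log2 fold change 1.03, edgeR adjusted p = 0.000122), and its 24 neighbours on the chromosome had a median of 0.44. Rgmb rose by 0.82 (edgeR adjusted p = 0.000986). The third family member, Hjv, named after its values were seen, was at 0.32 and was not called (edgeR adjusted p = 0.0638). Eng and Neo1, the other coreceptors tested, were not called either. Of the 5 coreceptors tested, 2 were thus higher and none was lower, beside 13.2% and 15.5% over all tested genes.

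Among 7 regulators of Smad signaling, 1 was higher and 3 were lower, Zfp423 among them, where 13.2% and 15.5% of all tested genes were. The ubiquitin ligase Smurf1, which marks BMP Smads for degradation, rose by 0.57 (edgeR adjusted p = 0.0359), a call lost without control replicate 1 or any miR-322/-503 library. Its relative Smurf2 was at -0.19 (edgeR adjusted p = 0.0434), a call lost in every fit that left out 1 library, with DESeq2 (adjusted p = 0.0890), with other normalizations, without the filter, with the replicate block and on the TPM scale. Tob1, a repressor of BMP Smads, fell by 0.36 (edgeR adjusted p = 0.00745). Zfp423, a cofactor of BMP Smads, had 49, 56 and 68 estimated counts in control and 12, 5 and 8 in the other group, all at or below the floor there (edgeR adjusted p = 0.00181), with a median of -0.64 for its 24 neighbours. It passed the filter on low counts through the control group, where it was high, and was not tested with at least 10 counts required in every library.

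Target genes outside the Id family did not move one way. Of 8 tested, 3 were higher, Msx2 among them, and 3 were lower, beside 13.2% and 15.5% over all tested genes. Hey1, a target shared with Notch signaling, reached 5.61 ± 0.547 CPM, up from 1.85 ± 0.142 CPM (log2 fold change 1.60, edgeR adjusted p = 0.000198). The homeobox gene Dlx3 rose by 0.84 (edgeR adjusted p = 0.014), a call lost without control replicate 1 or miR-322/-503 replicate 2. Msx2, another homeobox gene, had 5, 12 and 7 estimated counts in control, all at or below the floor, and 63, 39 and 33 in the other group (edgeR adjusted p = 0.00684). It passed the filter on low counts through the group where it was high, and it was not tested with counts per read pair or with at least 10 counts required in every library. Dlx2 fell by 0.84 (edgeR adjusted p = 0.00491). The other lower targets, named after their values were seen, were Atoh8 at -0.59 and Gata2 at -0.64 on the log2 scale.

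Seed matches were also counted in the pathway genes. Of the tested pathway genes with such a match, 15 in number, 3 were higher, 5 were lower and 7 were not called, with a median log2 fold change of -0.21. Of the 26 searched without a match, 6 were higher, 12 were lower and 8 were not called, with a median of -0.33. Over all tested genes, 13.2% were higher and 15.5% were lower.

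The E proteins and myogenic factors, which Id proteins bind or keep from binding, were read next. Of 7 tested genes, 3 were higher and 1 was lower, beside the same 13.2% and 15.5%. Tcf4, an E protein, rose by 0.42 on the log2 scale (edgeR adjusted p = 0.0443), but the call was lost without any library other than miR-322/-503 replicate 1. Tcf3, which encodes E12 and E47, was at 0.16 and Tcf12 at 0.05, with edgeR adjusted p-values of 0.0749 and 0.856. The value for Tcf12 turned negative without control replicate 1 (-0.058) or miR-322/-503 replicate 3 (-0.035).

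Among the myogenic factors, those of undifferentiated myoblasts and the one of early differentiation moved in opposite directions. Myf5 rose from 37.9 ± 1.01 to 48.1 ± 0.282 CPM (log2 fold change 0.35, edgeR adjusted p = 0.00364). Myod1 rose by 0.37 (edgeR adjusted p = 0.027), a call lost without any of the 3 miR-322/-503 libraries and on the TPM scale (limma adjusted p = 0.0593 on log2(TPM + 1)). Myog, the gene of myogenin, had 209, 215 and 185 CPM in control and 117, 134 and 115 CPM in the other group. It fell by 0.74 with a standard error of 0.09 (edgeR adjusted p = 0.000665). Myf6 had at most 48 estimated counts in a library and was not called (edgeR adjusted p = 0.635). With either miR-322/-503 replicate 2 or replicate 3 left out, 1 of the 7 genes was higher in place of 3.

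Marker lists of the cell types these cultures could hold moved beside the results above, and their counts are to be read against 13.2% higher and 15.5% lower over all tested genes. Of 8 cycling markers, 6 were lower and none was higher, among them Mki67 at -0.75, Ccnb1 at -0.69 and Ccna2 at -0.67 on the log2 scale, and their summed level was 1138 to 1174 CPM in control and 799 to 820 CPM in the other group. Of 10 myotube markers, 4 were higher, among them Tnni2 at 1.12 and Tnnt3 at 1.04, and 2 were lower, among them Myh1 at -1.43. Tnni2 and Tnnt3 lie close to each other on chromosome 7, and their 24 neighbours had medians of 0.39 and 0.55. The myotube sums were 2384 to 2611 CPM and 2631 to 2757 CPM. Acta1 and Myh3, the largest parts of these sums, were not called (Myh3 was named after its values were seen). Of 6 markers of undifferentiated reserve cells, 2 were higher and 3 were lower, with Cd34 at -1.58, Itga7 at 0.63 and Vcam1 at -0.46, and sums of 1047 to 1144 CPM and 1183 to 1251 CPM. The higher sum rested on Itga7, with means of 574 and 888 CPM, and to a lesser extent on Myf5, while Cd34, Vcam1 and Sdc4 fell (Myf5 and Sdc4 were named here after their values were seen). The part of these cell states in the BMP and Id differences was not tested.

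Markers of the other lineages that BMP signaling can direct were partly absent. Of 9 osteoblast markers, 7 could be tested, with Bglap2 higher at 1.66 and Alpl lower, and sums of 1413 to 1738 CPM in control and 1498 to 1721 CPM in the other group. The defining osteoblast genes Ibsp, with no count in any library, and Sp7, with at most 18 estimated counts, were at or near 0. Other osteoblast markers, named after their values were seen, were present, with means of 61.3 and 56.8 CPM for the osteoblast factor Runx2 and 1490 and 1579 CPM for Spp1, which made up most of the sum. Of 6 chondrocyte markers, 3 could be tested, with Sox9 higher at 0.30 and Matn3 and Comp lower, and sums of 60.0 to 67.8 CPM and 65.9 to 78.7 CPM. Sox9 made up most of the sum, with means of 58.3 and 72.0 CPM. The cartilage genes Acan and Col9a1 had no count in any library, and Col2a1 had at most 12 estimated counts (all 3 named after their values were seen). Comp had 175, 194 and 161 estimated counts in control and 0, 0 and 4 in the other group, and Matn3 had 259, 316 and 213 beside 29, 26 and 0. Alpl had 18, 35 and 4 in the miR-322/-503 libraries. Comp, Matn3 and Alpl passed the filter on low counts through the control group, where they were high. Of 6 adipocyte markers, 3 could be tested, with Lpl higher at 2.10 and Cebpa lower at -1.002, and sums of 17.4 to 20.1 CPM and 25.3 to 29.7 CPM. The higher sum rested mostly on Lpl, with means of 3.53 and 15.2 CPM, while Pparg was not called (edgeR adjusted p = 0.394). The adipocyte genes Adipoq and Fabp4 had no count in any library, and Plin1 had at most 5 estimated counts. Pparg, Adipoq, Fabp4 and Plin1 were named after their values were seen. The part of these lineages in the differences was likewise not tested.

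The genes whose pattern over the 6 libraries was nearest to that of Smad6 were Gm29233, Tle4 and Npr3. The root mean square distance of log2 CPM, centred on the control mean, was 0.135, 0.153 and 0.154. Their log2 fold changes were -2.21, -2.38 and -2.13, beside -2.17 for Smad6. This order is a description of likeness over 6 libraries that fall in 2 groups.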

How the data were processed

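RNA-seq data of 3 control and 3 miR-322/-503 libraries were used as deposited. Per the study's methods and the labels, the authors trimmed reads (Trim Galore), mapped them to GRCm38 (HISAT2) and quantified genes (StringTie), with no versions given in the sources used here. The gene annotation is not given in the sources used here, and 55154 of 55421 identifiers were found in GENCODE M21. The deposited table holds estimated counts per gene, without normalization. The deposited file of each library holds TPM and coverage (a signal per base) computed by the authors, and coverage served only to find that 1 read pair stands for about 4 estimated counts. TPM values of the 7 to 13 identifiers listed more than once in a library were summed.

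The groups were compared in R 4.3.3 by the quasi-likelihood test of edgeR 4.0.16, after filterByExpr and TMM, with Benjamini-Hochberg adjusted p-values. The standard error is the size of the log2 fold change divided by the square root of F, and 95% intervals use normal quantiles. Alternatives were DESeq2 1.42.0, limma 3.58.1 on log2(TPM + 1) and log2(TPM + 0.1), other normalizations and filters, counts per read pair, a replicate block and leaving out each library. Scripts were tested on simulated data. Genes named were the 10 members, the E proteins and myogenic factors, at most 4 called genes per role and 3 per marker list by size of change, and the 3 genes nearest to Smad6. Further ligands, receptors, Smads, antagonists, coreceptors, targets and markers were named outside this rule, after their values were seen. The members and lists were chosen with earlier results of these data known. A permutation test planned for the ratio of antagonists to ligand is not given, since that ratio is a score over the chosen genes. Shared 50-base runs with any single other gene made up at most 3.77% of a member's transcripts. After the lists were first used, 1 gene was taken off the pathway list and is not reported here.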

Additional observations from a re-analysis of the deposited data

How the results depend on the processing

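Bmp4 and Smad6 kept their call and direction under every alternative run, Smad6 between -2.43 and -1.40 on the log2 scale. The number of the 10 genes called higher was 1, and became 2 without normalization factors, 2 with at least 10 counts required in every library, and 2 with counts per read pair, since Nog was then called too. With limma on log2(TPM + 1) and log2(TPM + 0.1) the count stayed at 1, but the gene was Nog (0.45 and 0.93, adjusted p = 0.0279 and 0.0447) and not Id2. Leaving out each library in turn gave 1 to 3 genes called higher (3 without control replicate 3, Id2, Nog and Bmpr2) and 2 to 3 called lower. For the pathway list these ranges were 6 to 9 higher and 15 to 16 lower, and for the Id partners 1 to 2 higher and 1 lower. In the same fits Bmpr1a ranged from -0.0603 to 0.150 and Tcf12 from -0.0579 to 0.223 on the log2 scale, both changing sign. Without normalization factors the call of Id3 was lost (-0.52, adjusted p = 0.0589). The cause was not tested for any of these. Nog, Zfp423 and Id4 had few reads, with 91, 50 and 3 read pairs over all 6 libraries.

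The labels give same-numbered libraries a shared number only, and whether they were paired is not known. The correlations of their deviations were 0.131, 0.0687 and 0.0451. With the number as a replicate block, 3 of the 10 genes were called higher, with Nog at 1.06 (edgeR adjusted p = 0.0418) and Grem1 at 0.18 (0.0411) beside Id2, and Id1 was called lower at -0.49 (0.0160). The standard error of Id1 was 0.09 with the block and 0.25 without it. That of Grem1 was 0.05 and 0.10, and that of Smad6 0.29 and 0.26. Over all tested genes, 2667 were higher and 3066 lower with the block, beside 2401 and 2817 without it.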
